A study of Saccharomyces cerevisiae with 72 samples.

Results

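The genes described here are SEC17, BET1, BOS1, ERD2, SAR1, APS3 and ARF2, budding yeast genes of vesicle transport that carry an intron. They are taken by name, from a list drawn up with earlier results of these data known, and all 7 were found among the 982 genes named on the array. Each had 3 probes, so 21 of the 1457 named probes belong to them. Their systematic names are YBL050W for SEC17, YIL004C for BET1, YLR078C for BOS1, YBL040C for ERD2, YPL218W for SAR1, YJL024C for APS3 and YDL137W for ARF2. The 3 probes read the intron, the splice junction and an exon, and which probe is which was inferred from the place of the probes on the slide and from a splicing mutant, because no source used here states it. All 7 genes followed the rule of their placement class, as did 216 of all 227 genes with such probes (95.2%). The rule of a class was set by most of its genes in the same mutant arrays, so this agreement is partly built in. It covers the intron and exon probes only. The junction probe is the probe that remained, and its kind was not checked.

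Proteins leave the endoplasmic reticulum in vesicles, reach the Golgi and are sorted from there, and small GTPases, coats and SNARE proteins carry out each step. SAR1 encodes the GTPase that starts the COPII coat at the endoplasmic reticulum. ARF2 encodes a GTPase of the ADP-ribosylation factor family, which recruits coats at the Golgi and is nearly identical to ARF1, so a probe of ARF2 could also pick up ARF1 RNA. BET1 and BOS1 encode SNAREs of traffic between the endoplasmic reticulum and the Golgi, and SEC17 encodes alpha-SNAP, which helps to take used SNARE complexes apart. ERD2 encodes the receptor that returns resident proteins to the endoplasmic reticulum, and APS3 encodes the small subunit of the AP-3 adaptor of the route from the Golgi to the vacuole. An intron probe reports unspliced RNA or free intron, a junction probe reports spliced RNA, and an exon probe reports RNA of either form.

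Total RNA was compared on 72 two-colour arrays in 11 groups, and each array had a partner with the dyes exchanged, which gives 36 pairs. The question stated for the series was how splicing responds to amino-acid starvation, to ethanol toxicity and to the loss of mRNA decay factors. In 3 courses cells were sampled 2, 4, 6, 10, 15 and 20 min into 50 mM 3-amino-1,2,4-triazole (3-AT), an inhibitor of histidine synthesis: wild type treated over its time-matched untreated culture, the gcn2 deletion treated over its own untreated culture, and the treated gcn2 deletion over treated wild type. GCN2 encodes the kinase that senses amino-acid starvation. Wild type in 10% ethanol was compared with untreated wild type at 5, 10, 15, 20, 25 and 30 min. The temperature-sensitive splicing mutant prp8-1, labelled with the rich medium YPD, was compared with wild type, whose label names no medium, at 37 C from 2 to 20 min. A further 6 strains, each lacking a factor of RNA decay or processing (xrn1, upf1, ski2, rtt103, rrp6 and rai1), were set against wild type, both with the condition labelled MIN, which no label explains, with 1 pair each. No label gives the strain background, the way the deletions were made or separate cultures for the time points. The p-values and standard errors (SE) of a course therefore measure the scatter of its 6 time points about a straight line fitted in time. That scatter may be technical. For a gene that moved with time, the SE can be much smaller than the plain spread of its 6 values would give. A deletion strain has no replicate and no test.

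All values are log2 ratios, treated over untreated or mutant over wild type, as the mean of both arrays of a pair. The base of the logarithm is not stated in the sources used here and was taken as 2, and precision is limited by how many arrays there are. The deleted gene stood at -2.37 to -4.35 in the 6 deletions checked over wild type, gcn2 among them, which sets the direction of those ratios. No probe named for RTT103 was analysed here. For ethanol, for 3-AT over untreated and for prp8-1 no deleted gene checks the direction, which is likely and no more. The arrays of a pair correlated from 0.18 to 0.92 across probes, lowest at 2 min of wild type in 3-AT. The repeated spots of a member's probe had a median SD of 0.066 to 0.332 on 1 array. In a ratio of bulk RNA, fewer cells that hold a transcript and less of it per cell cannot be told apart.

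In wild type starved with 3-AT, the exon probes of both small GTPases fell with time and that of the AP-3 subunit rose. The SAR1 exon probe stood at -0.13, -0.36, -0.41, -0.64, -0.96 and -0.93 from 2 to 20 min. The ARF2 exon probe stood at -0.11, -0.24, -0.32, -0.44, -0.86 and -0.99 at the same times. Every value of both genes was below 0, and the lowest values came at 15 and 20 min. Averaged over the course, SAR1 stood at -0.57 ± 0.040 (SE, n = 6; limma adjusted p = 3.87e-05), rank 32 from the lowest of 974 genes with a level. ARF2 stood at -0.49 ± 0.031 (SE, n = 6; limma adjusted p = 2.3e-05), rank 46 from the lowest.

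**Figure D1:**
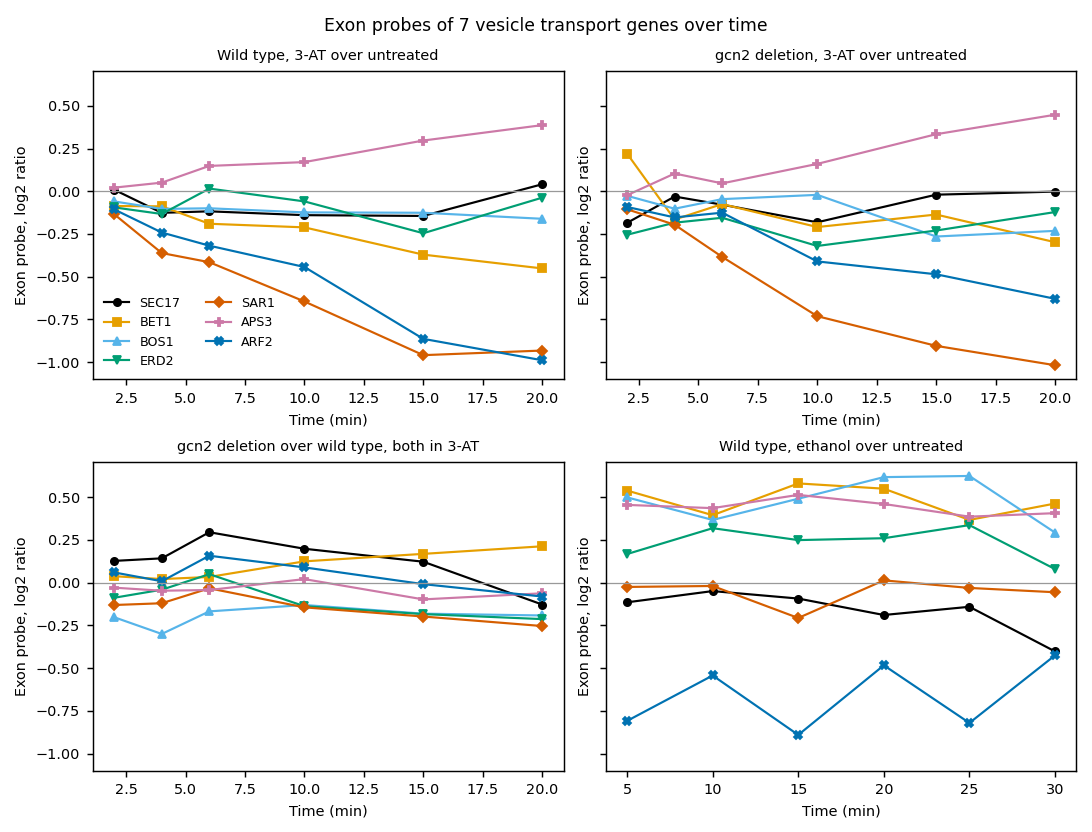
Exon probe log2 ratios of the 7 genes against time in minutes, in 4 panels for wild type in 3-AT, the gcn2 deletion in 3-AT, the gcn2 deletion over wild type in 3-AT, and wild type in ethanol; each point is the mean of a dye-swap pair. In 3-AT the SAR1 and ARF2 lines fall with time while APS3 rises, and in ethanol BET1, BOS1 and APS3 stay between 0.29 and 0.62 while ARF2 stays between -0.89 and -0.43.

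The APS3 exon probe ran the other way, from 0.02 at 2 min through 0.05, 0.15, 0.17 and 0.30 to 0.39 at 20 min, with a mean of 0.18 ± 0.025 (SE, n = 6; limma adjusted p = 0.000544). All 6 values lay above 0, and the Cy3 arrays alone gave 0.09. The SNARE gene BET1 fell from -0.09 at 2 min to -0.45 at 20 min, with a mean of -0.23 ± 0.025 (SE; limma adjusted p = 0.00018), or -0.15 on the Cy3 arrays alone. Its partner BOS1 kept to the narrow range of -0.16 to -0.06 and was also called lower, at -0.11 (SE 0.024; limma adjusted p = 0.00443). That call rests on the arrays with treated RNA in Cy5, since the Cy3 arrays alone gave -0.04 (limma adjusted p = 0.326). SEC17 stood at -0.08 and ERD2 at -0.09, and neither passed the test (limma adjusted p = 0.0856 and 0.0674). SEC17 did pass without 2 min (-0.10), without 20 min (-0.10) or on the Cy3 arrays alone (-0.12), and ERD2 on the Cy5 arrays alone (-0.13), with limma adjusted p of 0.0171 to 0.0418. In all 5 of the 7 genes were called, 1 higher and 4 lower, where 67.4% of the 974 genes were called in the same course. The median of the 7 was -0.11 against 0.02 over all genes. A change with time was called in 4 genes against 42.9% of all: SAR1 fell by 0.046 per min, ARF2 by 0.051 per min and BET1 by 0.021 per min, while APS3 rose by 0.020 per min (limma adjusted p of the slopes 0.000411 to 0.00643).

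The intron probe of SAR1 did not follow its exon probe down. It stood at -0.21, -0.06, 0.03, -0.13, -0.14 and 0.11 from 2 to 20 min, while the junction probe fell from -0.16 to -1.09 beside the exon. The intron minus exon index, the difference of the 2 log2 ratios, was therefore 0.51 ± 0.055 in SAR1 (SE, n = 6; limma adjusted p = 9.05e-06), rank 39 from the highest of 227 genes, and rose by 0.054 per min. Its size and slope came mostly from the exon fall. The SAR1 intron probe had a median spot SD of 0.235, against 0.076 at the exon. It rose little in prp8-1, to 0.01 (Cy5) and 0.34 (Cy3), rank 189 from the highest of 227 intron probes. How well it reports unspliced RNA was not tested. BET1 had an index of 0.38 ± 0.074 (SE; limma adjusted p = 0.000661), above 0 at 6 of 6 times. On the Cy5 and Cy3 arrays its intron probe averaged 0.03 and 0.26, and its exon probe -0.32 and -0.15. The BET1 intron probe had a median spot SD of 0.216. In prp8-1 it ranked 177 from the highest of 227 intron probes, and that of BOS1 ranked 186. The intron probe of ARF2 fell to -0.39 at 10 min and stood at -0.27 at 20 min. Its index of 0.21 was called (limma adjusted p = 0.00469) and rose by 0.044 per min, but it was 0.11 without the 20 min pair (limma adjusted p = 0.137) and lost its call without the 15 min pair too. SEC17 went the other way, at -0.18 (limma adjusted p = 0.0204). That call was lost in 4 of 11 alternatives, among them leaving out 10 or 20 min, with limma adjusted p of 0.0576 to 0.0719. BOS1 (0.08), ERD2 (-0.13) and APS3 (0.16) did not pass. The APS3 value rests on the 4 min pair, without which it was -0.06. BOS1 passed without 10 min (0.13) and ERD2 without 4 min (-0.17), on the Cy3 arrays (-0.16) and with medians over spots (-0.14), with limma adjusted p of 0.0245 to 0.0447. The count is 4 of 7 genes, 3 higher and 1 lower, where 69.6% of the 227 genes were called and their median was 0.19. The median of the 7, which is the APS3 value, was 0.16, and 0.09 without the 4 min pair. A trend was called in 2 of 7 against 21.6% of all.

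The junction and exon probes of a gene mostly moved together in wild type in 3-AT. The junction minus exon index was called in 2 of 7 genes, both lower, against 48.9% of the 227 genes. These were SEC17 and ARF2, each at -0.10 (limma adjusted p = 0.0328 and 0.0182). SEC17 lost its call in 6 of 11 alternatives, among them leaving out 6, 10, 15 or 20 min, and its index was -0.06 without the 20 min pair and -0.03 on the Cy3 arrays. APS3 (-0.15) was not called, but passed without 10 min (-0.20), with medians over spots (-0.17) and on the Cy5 arrays (-0.49), with limma adjusted p of 0.00352 to 0.0374. On the Cy3 arrays alone APS3 had the other sign, at 0.19. For ARF2 the sign depended on the dye, since the Cy3 arrays alone gave 0.13 (limma adjusted p = 0.042), and the call was also lost without 4 min (-0.10, adjusted p = 0.052) or 6 min (-0.09, adjusted p = 0.051). No trend passed in the 7 (0 by limma's adjusted p, 1 at an unadjusted p under 0.05), where 6.61% of the 227 genes had one.

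**Figure D2:**
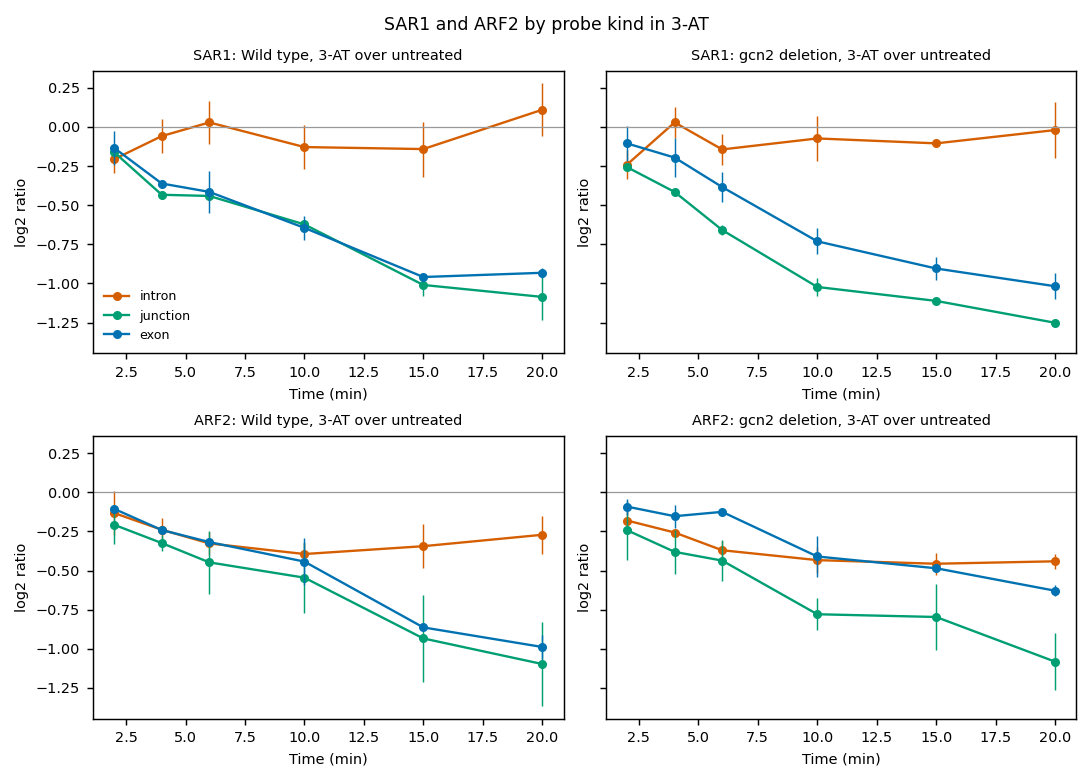
Log2 ratios of the intron, junction and exon probes of SAR1 (top) and ARF2 (bottom) against time in minutes in 3-AT, for wild type (left) and the gcn2 deletion (right); points are dye-swap means and vertical lines join the 2 arrays. The SAR1 intron stays between -0.24 and 0.11 while its junction falls to -1.09 and -1.25, and the ARF2 exon falls to -0.99 in wild type and -0.63 in the gcn2 deletion.

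SAR1 fell in the gcn2 deletion strain in 3-AT too. Its exon probe stood at -0.11, -0.20, -0.38, -0.73, -0.90 and -1.02, and its junction probe at -0.26, -0.42, -0.66, -1.02, -1.11 and -1.25. All 12 values lay below 0 and fell at each time. The mean level of SAR1 was -0.56 ± 0.043 (SE, n = 6; limma adjusted p = 3.86e-06), rank 20 from the lowest of 974. ARF2 fell less far, with exon values of -0.09, -0.15, -0.13, -0.41, -0.49 and -0.63 and a mean of -0.32 ± 0.037 (SE; limma adjusted p = 4.99e-05). APS3 rose from -0.02 to 0.45, with a mean of 0.18 ± 0.035 (SE; limma adjusted p = 0.00156), a call that needed the time term in the fit (adjusted p = 0.085 without it), and the Cy3 arrays alone gave 0.11. ERD2, the retrieval receptor, lay between -0.32 and -0.12 at all 6 times, with a mean of -0.21 ± 0.039 (SE; limma adjusted p = 0.00102). BOS1 was called at -0.12 (limma adjusted p = 0.0246), but lost the call without 15 or 20 min, where it was at -0.09 both times, on the Cy3 arrays alone (-0.05, adjusted p = 0.299) and without the time term (adjusted p = 0.126). BET1 (-0.11) and SEC17 (-0.08) did not pass. Without the 2 min pair, its only value above 0, BET1 stood at -0.18 and passed (limma adjusted p = 0.00348). It also passed on the Cy5 arrays alone (-0.15, adjusted p = 0.0339), and SEC17 on the Cy3 arrays alone (-0.13, adjusted p = 0.0145). Of the 7, 5 were called, 1 higher and 4 lower, against 61.6% of all genes, and 3 had a trend, SAR1 and ARF2 down and APS3 up, against 52.0%.

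The SAR1 intron probe again stayed close to 0 in the gcn2 deletion, between -0.24 and 0.03. Its intron minus exon index was 0.46 ± 0.053 (SE, n = 6; limma adjusted p = 2.34e-05), rank 22 from the highest of 227, and rose by 0.059 per min. Here too this came mostly from the exon fall. In ARF2 the intron fell with the exon, to -0.46 at 15 min, and the index stood at -0.04 (limma adjusted p = 0.49). SEC17 was lower at -0.20 (limma adjusted p = 0.00526), and its intron probe lay between -0.38 and -0.15 at all 6 times. BET1 was called at 0.19 and BOS1 at 0.13 (limma adjusted p = 0.0206 and 0.0376). BET1 lost its call without 10, 15 or 20 min and was 0.29 without 2 min. BOS1 lost it without 6, 15 or 20 min, with values of 0.11 to 0.16 when a time point was left out. Thus 4 of 7 were called, 3 higher and 1 lower, against 63.4% of the 227 genes, and the trend was called for SAR1 and BET1 against 44.1%. The junction minus exon index fell in SAR1, to -0.23 ± 0.032 (SE; limma adjusted p = 0.00148), and in ARF2, to -0.30 ± 0.033 (SE; limma adjusted p = 0.000879). Both were below 0 at 6 of 6 times and called in either dye alone, but the size differed by dye. ARF2 stood at -0.49 on the Cy5 and -0.12 on the Cy3 arrays, and SAR1 at -0.15 and -0.31. Not called were BOS1 (-0.10), which passed without 2 min (-0.12) and with medians over spots (-0.11), and SEC17 (-0.04) and APS3 (-0.04), which passed on the Cy5 arrays alone (-0.15 and -0.29). On the Cy3 arrays SEC17 and APS3 had the other sign, at 0.08 and 0.20. Calls in 2 of 7 genes stand against 42.7% of the 227 genes. None of the 7 had a trend in this index (0 by limma's adjusted p, 2 at an unadjusted p under 0.05), where 21.6% of all did.

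The difference between the strains was tested directly, as the response of wild type minus that of the gcn2 deletion. It was called in ARF2 for all 3 measures. Its level fell further in wild type, with a difference of -0.18 ± 0.045 (SE, n = 6 pairs in each strain; limma adjusted p = 0.0159), and was lower there at 6 of 6 times. The test did not pair the time points of the strains, while the counts of times given here do. Its intron minus exon response was 0.25 higher in wild type (SE 0.070; limma adjusted p = 0.0391) and its junction minus exon response 0.20 higher (SE 0.037; limma adjusted p = 0.0112), each at 6 of 6 times. The 3 calls share the exon probe, which is the level and is subtracted in both indices. On the Cy5 and Cy3 arrays, the ARF2 junction probe averaged -0.78 and -0.40 in wild type, and -0.78 and -0.46 in the gcn2 deletion. The ARF2 intron probe averaged -0.18 and -0.39 in wild type, and -0.30 and -0.41 in the gcn2 deletion. SAR1 differed in the junction minus exon response alone, by 0.18 ± 0.040 (SE; limma adjusted p = 0.0304). Its level differed by -0.02 ± 0.060 (SE about the fitted time lines; limma adjusted p = 0.876) and was not called. The members called were 1 of 7 by level against 19.5% of all genes and 1 of 7 by the intron index against 14.1%. They were 2 of 7 by the junction index against 8.81%. None of these calls was kept when the fit had no time term (limma adjusted p = 0.721 for the level of ARF2). All 4 were also lost when single time points were left out, the ARF2 level without 15 or 20 min (-0.14 each), its intron index without 4, 6, 15 or 20 min (0.19 to 0.28) and its junction index without 10, 15 or 20 min (0.18 to 0.20). The SAR1 junction index lost its call without 4, 6, 10, 15 or 20 min (0.15 to 0.20).

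The arrays that set the treated gcn2 deletion beside treated wild type share treated cultures with those courses by their labels, so they are given side by side and not as independent evidence. There BOS1 was lower in the gcn2 deletion, with exon values of -0.20, -0.30, -0.17, -0.13, -0.18 and -0.19. All 6 lay below 0, and the mean was -0.20 ± 0.031 (SE; limma adjusted p = 0.000799). SAR1 was lower by a mean of -0.15 (limma adjusted p = 0.00272), from -0.03 at 6 min to -0.25 at 20 min, which the Cy3 arrays alone did not call (-0.08, adjusted p = 0.119). SEC17 (0.13) and BET1 (0.10) were called higher and ERD2 (-0.10) lower, with limma adjusted p of 0.0117 to 0.0271. SEC17 lost its call without 4, 6, 10 or 15 min, BET1 without 15 or 20 min and ERD2 without 10, 15 or 20 min. All 3 also lost it without the time term (limma adjusted p = 0.0728 to 0.0956) and on the arrays of 1 dye, where SEC17 stood at 0.07 (Cy3), ERD2 at -0.05 (Cy3) and BET1 at 0.07 (Cy5). Their values with a time point left out were 0.09 to 0.18 in SEC17, 0.08 to 0.11 in BET1 and -0.13 to -0.08 in ERD2. APS3 stood at -0.04 and ARF2 at 0.04, neither of them called. APS3 passed on the Cy3 arrays alone (-0.15, limma adjusted p = 0.0096), but stood at 0.06 on the Cy5 arrays. In all 5 of 7 were called against 60.3% of all genes.

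By intron minus exon index, BOS1 was higher in the treated gcn2 deletion at 0.24 ± 0.051 (SE; limma adjusted p = 0.000938), above 0 at 6 of 6 times. The BOS1 intron probe averaged -0.04 on the Cy5 and 0.13 on the Cy3 arrays, and its exon probe -0.25 and -0.14. This index shares the exon probe with the BOS1 level called above, so it is not a separate result. ARF2 was lower at -0.17 (limma adjusted p = 0.00748), below 0 at 6 of 6 times, but -0.07 and not called on the Cy5 arrays. APS3 was called at 0.18 (limma adjusted p = 0.014) and stood at 0.13 without the 2 min pair (adjusted p = 0.06). It lost its call without the time term and on the Cy3 arrays too (adjusted p = 0.0572 and 0.0964). Not called were SAR1 (0.11), which passed without 6 min (0.14), with medians over spots (0.14) and on the Cy3 arrays (0.16), and ERD2 (0.06), which passed on the Cy5 arrays (0.15). On the Cy3 arrays ERD2 stood at -0.02. The 3 of 7 calls stand against 43.2% of the 227 genes. The junction minus exon index was called in SAR1 alone, at -0.12 (limma adjusted p = 0.0205), against 33.0% of the 227 genes. It lost the call without 4, 10 or 15 min, at -0.12 to -0.10, and stood at -0.03 on the Cy5 arrays (adjusted p = 0.531). On the Cy5 arrays alone ARF2 (-0.27) and SEC17 (-0.18) passed, which at -0.05 and -0.06 were not called. Both had the other sign on the Cy3 arrays alone, ARF2 at 0.17 (limma adjusted p = 0.0137) and SEC17 at 0.05. No trend passed in any of the 7 by limma's adjusted p. At an unadjusted p under 0.05 there was 1 in the level, 1 in the intron index and 0 in the junction index, where 33.8%, 27.8% and 2.64% of all features had a trend by the adjusted p.

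Ethanol gave another order of the same genes. The exon probes of both SNAREs, the AP-3 subunit and the retrieval receptor were higher, that of ARF2 was lower, and that of SAR1 was near 0. The junction probes of BET1 (-0.18 on the Cy5 and 0.48 on the Cy3 arrays) and BOS1 (-0.40 and 0.63) differed in sign by dye. BET1 exon values were 0.54, 0.39, 0.58, 0.55, 0.37 and 0.46 from 5 to 30 min. Those of BOS1 were 0.50, 0.37, 0.49, 0.62, 0.62 and 0.29. All of them lay above 0 from the first time on and showed no steady rise or fall. The means were 0.48 ± 0.050 in BET1 (SE, n = 6; limma adjusted p = 1.26e-05) and 0.48 ± 0.058 in BOS1 (SE; limma adjusted p = 3.86e-05), which stood at 0.26 on the Cy5 and 0.70 on the Cy3 arrays.

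APS3 had the narrowest spread, from 0.39 to 0.51, with a mean of 0.44 ± 0.044 (SE, n = 6; limma adjusted p = 1.06e-05). ERD2 lay between 0.08 and 0.34, with a mean of 0.23 ± 0.051 (SE; limma adjusted p = 0.00199). The SAR1 exon probe lay between -0.21 and 0.01, with a mean of -0.05 that was not called (limma adjusted p = 0.32). SEC17 was called lower at -0.17 (limma adjusted p = 0.0109), but -0.12 without the 30 min pair (adjusted p = 0.071) and -0.04 on the Cy3 arrays alone. In all 6 of 7 were called, 4 higher and 2 lower, against 79.9% of all genes. The median of the 7 was 0.23 against -0.12 over all genes. No trend passed by limma in the 7 (0 also at an unadjusted p under 0.05), and 0.205% of all genes had one.

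ARF2 was the lowest of the 7 in ethanol, with exon values of -0.81, -0.54, -0.89, -0.48, -0.82 and -0.43 and a mean of -0.66 ± 0.069 (SE, n = 6; limma adjusted p = 1.44e-05). The values alternated between lower and higher times. The size depended on the dye, with a mean of -0.16 on the arrays with treated RNA in Cy5 (not called, adjusted p = 0.171) and -1.16 on those with it in Cy3. Its intron probe was above 0 at every time, from 0.10 to 0.35. Here too the dyes differed, with 0.66 in Cy5 and -0.16 in Cy3. The intron minus exon index, in which a dye effect shared by both probes cancels, was 0.91 ± 0.071 (SE; limma adjusted p = 1.58e-08), rank 27 from the highest of 227, and 0.82 and 1.00 in the 2 dyes. SEC17 (0.25) and ERD2 (0.21) were also called higher and BET1 (-0.20) and BOS1 (-0.29) lower, but each of these 4 lost its call on the arrays of 1 dye, with 0.12, 0.08, -0.01 and -0.07 there. BET1 stood at -0.16 without the 5 min pair (adjusted p = 0.059). SAR1 (0.02) and APS3 (-0.10) did not pass. APS3 did on the Cy3 arrays alone (-0.24, limma adjusted p = 0.0159), but stood at 0.03 on the Cy5 arrays. The 5 of 7 calls stand against 78.0% of the 227 genes. The trend passed in 0 of the 7 and in 0.0% of all by limma, and in 0 of the 7 at an unadjusted p under 0.05.

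**Figure D3:**
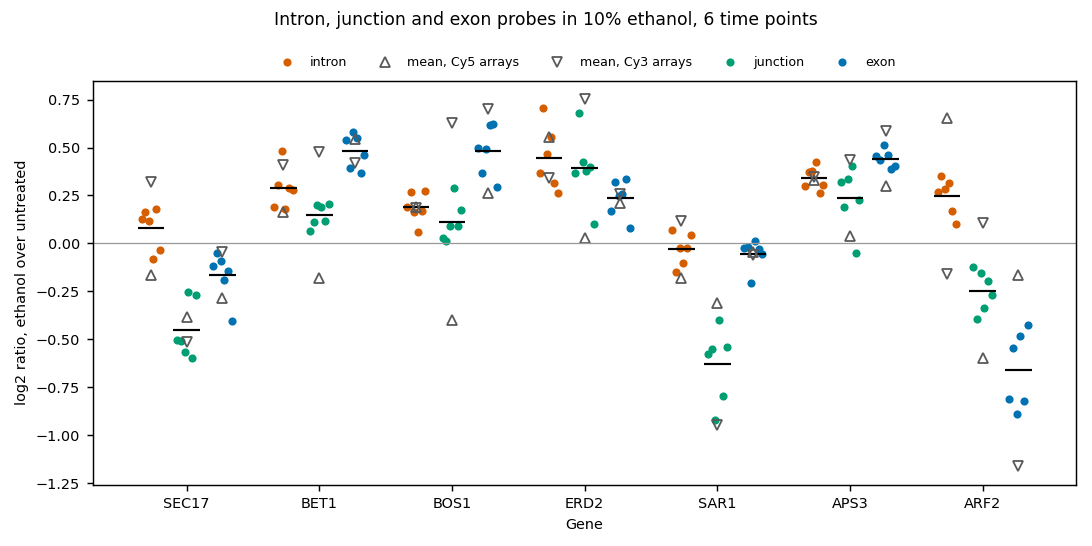
Log2 ratios, ethanol over untreated wild type, of the intron, junction and exon probes of each gene; filled points are the 6 time points (dye-swap means), black bars their mean, and open triangles the means of the arrays with treated RNA in Cy5 (up) or Cy3 (down). The SAR1 junction lies at -0.92 to -0.40 while its exon lies at -0.21 to 0.01, and for the junctions of BET1 and BOS1 the open triangles fall on opposite sides of 0.

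SAR1 split by probe in ethanol. Its junction probe stood at -0.58, -0.55, -0.92, -0.40, -0.80 and -0.54 while intron and exon probes stayed within -0.21 to 0.07. The junction minus exon index was -0.58 ± 0.064 (SE, n = 6; limma adjusted p = 6.47e-06), rank 17 from the lowest of 227, and below 0 in both dyes at -0.27 and -0.89. All 7 genes were called by this index, 2 higher and 5 lower, against 78.4% of the 227 genes, and the median of the 7 was -0.28 against 0.13. Of the other calls, 5 depended on the dye. SEC17 (-0.28) lost its call on the Cy5 arrays, at -0.10, and BOS1 (-0.37) on the Cy3 arrays, at -0.08. BET1 (-0.33) changed sign, to 0.06 on the Cy3 arrays. ARF2 (0.42) and ERD2 (0.16) turned to -0.43 and -0.18 on the Cy5 arrays, and ERD2 also lost its call without 5, 10 or 15 min (0.15, 0.12 and 0.15) and with medians over spots (0.13). APS3 (-0.20) kept its sign and stood at -0.26 on the Cy5 and -0.15 on the Cy3 arrays, where it was not called (limma adjusted p = 0.0631 and 0.0873). The part of the dye in these results was not tested. The trend passed in 0.0% of all genes by limma and in 0 of the 7, also at an unadjusted p under 0.05.

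In prp8-1 at 37 C, where a core spliceosome protein is inactivated, the junction probes of 6 of the 7 genes were lower. Only junction probes were tested there, because the mutant helped to define the intron and exon probes. The ARF2 junction stood at -1.70, -1.78, -1.90, -2.18, -2.33 and -2.59, with a mean of -2.08 ± 0.031 (SE, n = 6; limma adjusted p = 4.41e-08), rank 4 from the lowest of 227 junction probes. Most of this ratio was there at 2 min, and the part of a strain difference in it was not tested. SEC17 fell from -0.46 to -1.81, with a mean of -1.16 ± 0.061 (SE; limma adjusted p = 3.77e-06). ERD2 fell from -0.29 to -1.68, with a mean of -0.84 (limma adjusted p = 6.31e-07), and SAR1 from -0.39 to -1.19, with a mean of -0.71 (limma adjusted p = 1.58e-06). The means of the SNARE genes were nearer to 0, BOS1 at -0.52 and BET1 at -0.40 (limma adjusted p = 5.71e-06 and 9.93e-05). APS3 lay between -0.08 and 0.15, with a mean of 0.02 (limma adjusted p = 0.593). The 6 of 7 calls stand against 69.2% of the 227 junction probes, where 157 were called, 43 higher and 114 lower, and against 79.1% of the 1457 named probes of all kinds. BET1 stood at -0.62 and -0.17 in the 2 dyes and SAR1 at -0.48 and -0.95, all of them called. The median junction of the 7 was -0.71, against -0.11 over all 227. Exon probes fell too, so the junction minus exon index is given here by dye, without a test. On the Cy5 and Cy3 arrays it was below 0 in ARF2 (-1.11 and -0.48) and ERD2 (-0.33 and -0.23). It was above 0 in SEC17 (2.09 and 2.22), APS3 (0.11 and 0.26) and BOS1 (0.09 and 0.09). The sign differed by dye in BET1 (-0.13 and 0.15) and SAR1 (0.05 and -0.32).

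**Figure D4:**
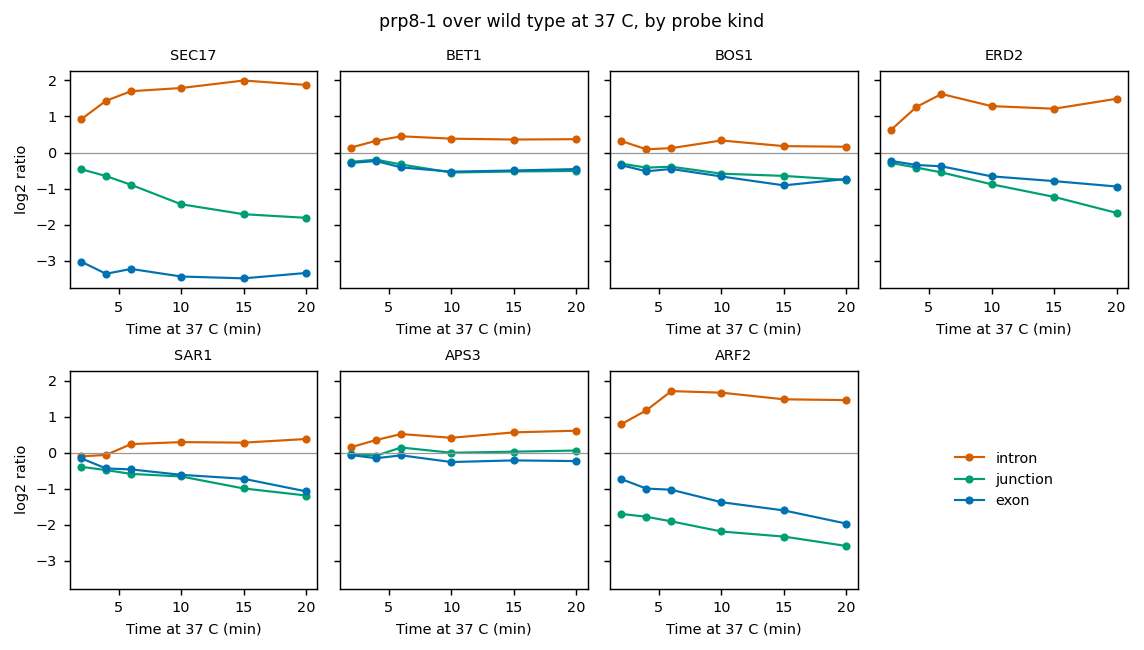
Log2 ratios, prp8-1 over wild type at 37 C, of the intron, junction and exon probes of each gene against time in minutes; points are dye-swap means. The ARF2 junction starts at -1.70 and ends at -2.59, the APS3 junction stays between -0.08 and 0.15, and the SEC17 exon is at -3.03 or below at all times.

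The intron and exon probes are described without a test, since their kinds were set with this mutant. Intron means were 1.62 in SEC17, 1.38 in ARF2 and 1.25 in ERD2, above the median of 1.10 over 227 genes. They were 0.44 in APS3, 0.34 in BET1, 0.20 in BOS1 and 0.17 in SAR1. The genes thus fell into a set with large intron ratios and a set with small ones. The exon means were -1.28 in ARF2 and between -0.61 and -0.16 in BET1, BOS1, ERD2, SAR1 and APS3, with a median over all 227 genes of -0.07.

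The SEC17 exon probe stood apart from all of these. It was at -3.03 at 2 min, the first time, and between -3.49 and -3.23 afterwards, while the junction probe of the same gene still read -0.46 at 2 min. Its mean of -3.32 was the lowest of 227 exon probes and rank 5 from the lowest of 974 levels, and both dyes gave it, at -3.07 and -3.56. In no other course did a time point of this probe pass -0.40. The 4 lower levels, named after their values were seen, were those of MF(ALPHA)1 at -5.97, MF(ALPHA)2 at -3.88 and STE3 at -3.78, genes that alpha cells express, and GAC1 at -3.50. The part of a strain difference in the SEC17 value was not tested.

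In the strain deleted for xrn1, the cytoplasmic exonuclease that degrades mRNA from its 5' end, 6 of the 21 member probes passed an absolute log2 ratio of 0.5, 5 of them higher and 1 lower. Of all named probes 38.8% did so. All 3 probes of SEC17 were higher, at 0.63 (intron), 0.56 (junction) and 0.62 (exon). ERD2 was higher at its junction (0.62) and exon (0.80) and stood at 0.21 at its intron. Both arrays of each of these 5 probes lay above 0, but the SEC17 intron (0.43 and 0.82) and junction (0.67 and 0.45) had 1 array each below 0.5. The BOS1 junction was at -0.67, with -0.69 and -0.65 on the 2 arrays, beside 0.19 at its exon and 0.06 at its intron.

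The strain deleted for upf1, a helicase of nonsense-mediated decay, had 2 of 21 probes past 0.5, against 17.2% of all probes. These were the ARF2 intron at 0.63 (0.87 and 0.39 on the 2 arrays), beside 0.07 at its exon, and the APS3 exon at 0.51 (0.56 and 0.45). The median intron probe of the 7 genes was 0.25, their median exon 0.12 and their median junction 0.03. No member probe passed 0.5 in the deletions of rai1 (11.7% of all probes), rrp6 (12.5%), rtt103 (4.39%) or ski2 (4.87%). The values nearest to that size were 0.33 in rai1 and -0.44 in rrp6, from the exon probes of BET1 and BOS1. In rtt103 and ski2 they were -0.39 and -0.37, both from the SAR1 exon. RAI1 assists the nuclear exonuclease Rat1, RRP6 is a nuclear exosome exonuclease, RTT103 acts in transcription termination and SKI2 is a helicase of the cytoplasmic exosome pathway.

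**Figure D5:**
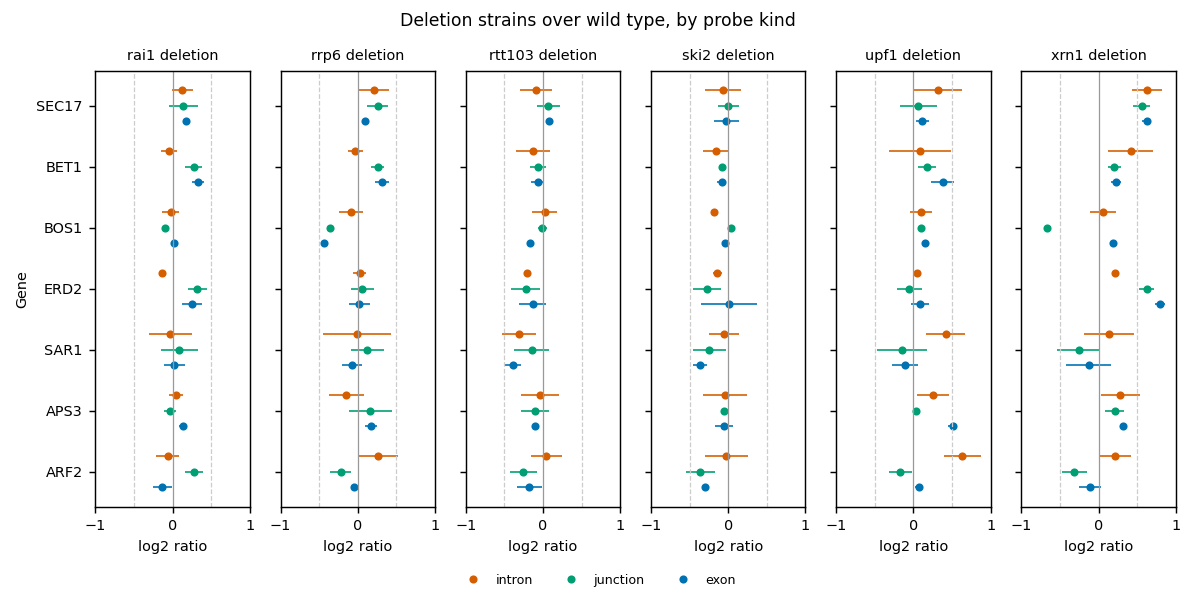
Log2 ratios of the 21 probes in the 6 deletion strains over wild type, 1 panel a strain; points are dye-swap means, horizontal lines join the 2 arrays, and dashed lines mark 0.5 in either direction. In xrn1 the SEC17 probes and the ERD2 junction and exon lie at 0.56 to 0.80 and the BOS1 junction at -0.67.

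Across all 36 pairs, the intron minus exon index of ARF2 ran most like that of SAC6 (Pearson r = 0.97) and UBC4 (r = 0.97), and without prp8-1 it was still at 0.90 and 0.80 over 30 pairs. SAR1 ran most like OM14 (r = 0.85, and 0.85 without prp8-1) and PRE3 (0.81 and 0.69). BET1 ran most like RPS26A (0.87 and 0.78) and RPS24A (0.87 and 0.78), and BOS1 most like CMC2 (0.89 and 0.70) and COX4 (0.87 and 0.64). For SEC17 the nearest genes were NYV1 (0.98 and 0.55) and RPS23A (0.97 and -0.26), and for ERD2 they were NYV1 (0.98 and 0.72) and QCR9 (0.96 and 0.47). The likeness of SEC17 to RPS23A therefore rests on prp8-1. APS3 had the least like partners, MMS2 (0.68 and 0.30) and RPS23A (0.67 and 0.40). These figures describe pairs that share controls, arrays and time courses.

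Of 82 other genes of vesicle transport asked for, 11 had a level and intron, junction and exon probes. In wild type in 3-AT, 8 of the 11 levels were called, 1 higher and 7 lower, with a median of -0.18, beside the 67.4% of all genes called. The lowest were YOP1 (-0.50), which shapes tubules of the endoplasmic reticulum, GOT1 (-0.42), of traffic to the Golgi, and SFT1 (-0.35), a Golgi SNARE. NYV1, the vacuolar SNARE, was higher at 0.08. In the gcn2 deletion 6 were called, against 61.6% of all genes, 1 higher (NYV1, 0.16) and 5 lower, led by SFT1 (-0.40), GOT1 (-0.25) and YOP1 (-0.24). The difference between strains was called in YIP3 (-0.35) and YOP1 (-0.25), each lower in wild type, against 19.5% of all genes. In ethanol 6 levels were called, against 79.9% of all genes, 1 higher and 5 lower, led by SEC14 (-1.16), the phosphatidylinositol transfer protein, and SEC27 (-0.94), a COPI coat subunit, and then YIP3 (-0.49). In the treated gcn2 deletion over treated wild type 6 were called, against 60.3% of all genes, with SEC27 (0.14) and YOP1 (0.10) higher and 4 lower, led by YIP3 (-0.33), GOT1 (-0.24) and ERV41 (-0.13).

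The intron minus exon index of these 11 genes was called in 6 in wild type in 3-AT, against 69.6% of the 227 genes, 5 higher, led by ERV41 (0.27), GOT1 (0.23) and SEC27 (0.19), and NYV1 lower (-0.22). In the gcn2 deletion it was called in 5, against 63.4%, with GOT1 (0.17) and ERV41 (0.15) higher and NYV1 (-0.27), YIP3 (-0.20) and VPS29 (-0.14) lower. In the direct comparison of the treated strains 4 were called, against 43.2%: YIP3 (0.37) and GOT1 (0.22) were higher and SFT1 (-0.26) and YOP1 (-0.13) lower. In ethanol 9 were called, against 78.0%, 8 higher, led by SEC14 (1.43), SEC27 (1.43) and DID4 (1.00), and YOP1 lower (-0.37). The strain difference was called in YIP3 (0.35) and YOP1 (0.25), against 14.1%. The junction minus exon index was called in 4 genes in wild type in 3-AT (48.9% of the 227), all lower and led by SEC27 (-0.21), and in SFT1 (0.39) alone in the gcn2 deletion (42.7%). It was called in 3 genes in the direct comparison (33.0%), led by YIP3 (0.22), and in 8 in ethanol (78.4%), 6 higher with SEC14 (1.12) first and SEC27 (-0.60) the lowest. All calls are limma adjusted p under 0.05 over all genes tested.

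Of 34 genes of entry to and folding in the endoplasmic reticulum, 5 had a level and none had 3 probe kinds. In wild type in 3-AT all 5 were called, beside 67.4% of all genes, with SEC65 (-0.45) of the signal recognition particle, the chaperone KAR2 (-0.44) and LHS1 (-0.22) lower and SRP21 (0.34) and SRP14 (0.14) higher. In the gcn2 deletion 3 were called, against 61.6%. There SEC65 (-0.31) and LHS1 (-0.20) were lower and SRP21 (0.30) higher, and the strain difference was called in KAR2 (-0.49) and SEC65 (-0.14), against 19.5%. In the direct comparison of the treated strains KAR2 (0.23) and SRP14 (0.16), 2 of the 5, were higher in the gcn2 deletion, against 60.3%. In ethanol 3 were called, against 79.9%, SEC65 (-1.40) and KAR2 (-0.79) lower and SRP14 (0.55) higher.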

How the data were processed

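RNA was extracted with acid phenol and copied into cDNA with aminoallyl-dUTP, per the labels' protocols. The authors deposited a log2 ratio per spot (base 2 assumed), in 2 tables of 6144 and 9216 spots with 4 and 6 spots a probe. How background and normalization were handled is not given in the sources used here. Array medians lay between -0.036 and 0.035, and no centring was added. Both arrays of a pair run the same way, so no sign was turned.

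Spots were averaged per probe and arrays per pair. All 1457 probe names were updated through Entrez identifiers with the RefSeq table of assembly R64. A level is the exon probe, or the only probe of a gene (974 genes). Each course was fitted within its table with limma 3.58.1 (R 4.3.3) as a mean and a centred slope in time, with Benjamini-Hochberg adjustment over all features and a threshold of 0.05. The fits were tested on simulated data. Alternatives were medians over spots, single dye orientations, recentred arrays, no slope, a block for time and each time point left out. Deletion strains were described by an absolute log2 ratio of at least 0.5. List genes are named as the up to 3 called with the largest mean in each direction. Likeness is the highest 2 Pearson r of the intron minus exon index. The members and lists were chosen with earlier results of these data known.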

Additional observations from a re-analysis of the deposited data

Results flagged for a closer look

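In 5 of 105 series of 6 time points, a probe of a member had a value whose gap to the next exceeded the critical share of the range in Dixon's test at the 95% level. This is 4.76% of them. The 5% rate of that test holds for independent values without a trend, so it is not the chance rate of these series. The APS3 intron probe in wild type in 3-AT stood at 1.35 at 4 min, beside -0.13 to 0.41 at the other times, and its arrays read 2.27 and 0.42. The same probe stood at 0.41 at 2 min in the treated gcn2 deletion over treated wild type, beside 0.03 to 0.15. There the BET1 intron probe stood at 0.55 at 15 min, beside -0.11 to 0.08. The BOS1 intron probe stood at -0.29 at 10 min in wild type in 3-AT, beside -0.04 to 0.06. The SAR1 exon probe stood at -0.21 at 15 min in ethanol, beside -0.06 to 0.01.

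The response to 3-AT differed between wild type and the gcn2 deletion, by the tested difference, in ARF2 level (-0.18), ARF2 intron minus exon index (0.25), ARF2 junction minus exon index (0.20) and SAR1 junction minus exon index (0.18). None of these was kept without the time term, and the ARF2 values all share its exon probe.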

How the results depend on the processing

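Of 59 results of single members past the threshold, 27 stayed past it under every alternative run, among them the levels of SAR1 and ARF2 in both 3-AT courses and the junction probes in prp8-1. The other 32 were lost under at least 1 alternative, and 19 when a time point was left out. Recentring changed 1 of 120 results, medians over spots 6 of 120.

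Without the slope, members called were 3 in place of 5 (level, gcn2 deletion in 3-AT), 2 in place of 5 (level, treated gcn2 deletion over wild type), 2 in place of 4 (intron index, gcn2 deletion), 1 in place of 2 (junction index, wild type in 3-AT) and 0 for every strain difference. With a replicate block on time, the strain differences were called in 1 member by level, 1 by the intron index and 1 in place of 2 by the junction index. The call lost there was that of SAR1 (adjusted p = 0.1). Time-matched residuals of both courses correlated from -0.25 to 0.32, over 0.1 at 2 of 6 times by level, 4 by the intron index and 1 by the junction index. Not every time passed 0.1, so the block was not taken as a pairing. On the Cy5 arrays alone, counts were 0 for the strain differences, 2 and 1 trends (against 0 by level in the treated gcn2 deletion over wild type, and 2 by intron index in wild type), 3 (intron index, ethanol), 4 (junction index, gcn2 deletion), 2 (junction index, treated gcn2 deletion over wild type), 4 (junction index, ethanol), and 1 probe past 0.5 in each of rrp6, rtt103 and ski2. On the Cy3 arrays alone they were 3 (level, treated gcn2 deletion over wild type), 1 trend (intron index, gcn2 deletion), 0 for the strain differences by either index, 1 (junction index, wild type), 2 (junction index, treated gcn2 deletion over wild type) and 4 (junction index, ethanol). Recentring left 1 of 2 probes past 0.5 in upf1.

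Changes of sign were counted only where the main run or the alternative was called. By that rule the junction minus exon index changed sign in ARF2 on Cy3 arrays in wild type in 3-AT (0.13) and in the treated gcn2 deletion over wild type (0.17), in ARF2 (-0.43) and ERD2 (-0.18) on Cy5 arrays in ethanol, and in BET1 on Cy3 arrays in ethanol (0.059). Outside that rule the dyes also differed in sign, among others in APS3. On the Cy5 and Cy3 arrays APS3 stood at -0.49 and 0.19 in wild type in 3-AT and at -0.29 and 0.20 in the gcn2 deletion. In the direct comparison it stood at -0.09 and 0.19. The cause was not tested. With a time point left out, counts ranged from 4 to 6 and 2 to 5 (levels, gcn2 deletion and the direct comparison), 2 to 5, 2 to 4 and 4 to 5 (intron index, wild type, gcn2 deletion, ethanol), 0 to 2, 2 to 3, 0 to 1 and 6 to 7 (junction index, wild type, gcn2 deletion, direct comparison, ethanol) and 0 to 1, 0 to 1 and 0 to 2 (strain differences). How far spots stood above background could not be judged from the ratios.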
